A study of Mus musculus with 12 samples.

Results

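Transcripts of 7 glucose and monocarboxylate transporters were examined in the white matter of mice on a control-fat diet (CFD) or a high-fat diet (HFD). The 7 genes were chosen by symbol and not by a measured value from the 24060 genes of the count table, but with earlier results of these data known. They are the glucose carriers Slc2a1 (GLUT1), Slc2a3 (GLUT3), Slc2a4 (GLUT4) and Slc2a8 (GLUT8), and the monocarboxylate carriers Slc16a1 (MCT1), Slc16a3 (MCT4) and Slc16a7 (MCT2). All 6 animals were male Tie2-Cre:Rpl22-HA mice, called Tie2-Cre:RiboTAG, in which Cre driven by the Tie2 (Tek) promoter switches on an Rpl22, a protein of the large ribosomal subunit, that carries the HA epitope. Animals 489, 555 and 556 were fed 10% of kcal from fat (CFD), and animals 516, 517 and 676 were fed 60% of kcal from fat (HFD). From each animal, RNA that came down with the tagged ribosomes (IP) and the RNA before the pulldown (input) were sequenced, which makes 12 libraries in 4 groups of 3. The age of these 6 animals is not given in the sources used here. Tie2 promoter activity is known in endothelium and also in some blood cells, so the tag need not be confined to vessels.

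The brain runs largely on glucose, which crosses the endothelium and enters astrocytes through GLUT1 and enters neurons mainly through GLUT3. GLUT4 is the insulin-responsive carrier of muscle and fat, and GLUT8 is an intracellular hexose carrier. Lactate, pyruvate and ketone bodies cross membranes together with a proton through the MCT carriers. MCT1 is known in endothelium, oligodendrocytes and astrocytes, MCT4 in astrocytes and other glycolytic cells, and MCT2, which has a high affinity for lactate, in neurons. In white matter, lactate handed from glia to axons through these carriers is held to support axonal energy supply.

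The 12 libraries held between 19567186 and 33660708 gene counts. The ribosomal RNA precursor Rn45s took 38.7% to 42.3% of the counts in CFD IP, 17.1% to 19.1% in HFD IP and 6.34% to 14.2% in the input libraries. Endothelial markers were sparse. The summed level of 15 markers ran from 6.48 to 229 CPM (counts relative to the scaled library size, the usual unit of abundance) in CFD IP, from 25.7 to 74.4 CPM in HFD IP, from 18.8 to 46.4 CPM in CFD input and from 14.4 to 52.2 CPM in HFD input. The IP library lay above the input of the same animal in 3 of 6 animals. In each of these 3 IP libraries 1 marker gave most of the sum. It was Egfl7 in animal 556 (205 of 229 CPM), Slco1a4 in 516 (57.8 of 74.4 CPM) and Flt1 in 517 (22.6 of 32.5 CPM). In the input of animal 555, Vwf gave 30.1 of 46.4 CPM. Tek itself had no count in 5 of 12 libraries, and the tight junction gene Cldn5 had none in 7 of 12. Summed markers of astrocytes, oligodendrocytes and neurons were far higher in the 12 libraries. They ran from 3567 to 9675 CPM for 8 astrocyte markers and from 2982 to 7606 CPM for 8 oligodendrocyte markers. For 8 neuronal markers they ran from 4871 to 12466 CPM. Markers of oligodendrocyte progenitors (6 genes) summed to 128 to 283 CPM and those of microglia (8 genes) to 85.1 to 306 CPM. Pericyte and smooth muscle markers (8 genes) summed to 2.90 to 40.0 CPM and blood markers (5 genes) to 0.033 to 21.3 CPM. These sums were not divided by transcript length. The IP libraries are therefore called by that name and not endothelial below, and the part of cell makeup in the transporter values was not tested. In bulk samples of this kind, fewer cells of a type and less RNA per cell cannot be told apart.

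Of the 7 transporters, 6 had enough counts to be tested, and Slc2a4 had no count in any library. No transporter passed an adjusted p of 0.1 in edgeR's quasi-likelihood test in any of 6 comparisons. Slc2a1 came nearest, in CFD IP against CFD input (adjusted p = 0.273). Its 3 CFD IP libraries lay above the 3 CFD input libraries, a separation found for 6.43% of genes in that direction. They also lay above the 3 HFD IP libraries, as for 4.66% of genes, but there its adjusted p was 0.661. Slc2a3 was the most abundant carrier per transcript length over all libraries, followed by Slc2a1. Slc16a3 was near or at 0 in most libraries. Within a group the highest library was up to 971-fold the lowest for Slc2a8, where the lowest held 1 count, and up to 18.6-fold for Slc16a1. For Slc16a7, Slc2a3 and Slc2a1 it was up to 9.53-fold, 8.51-fold and 8.21-fold.

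**Figure D1:**
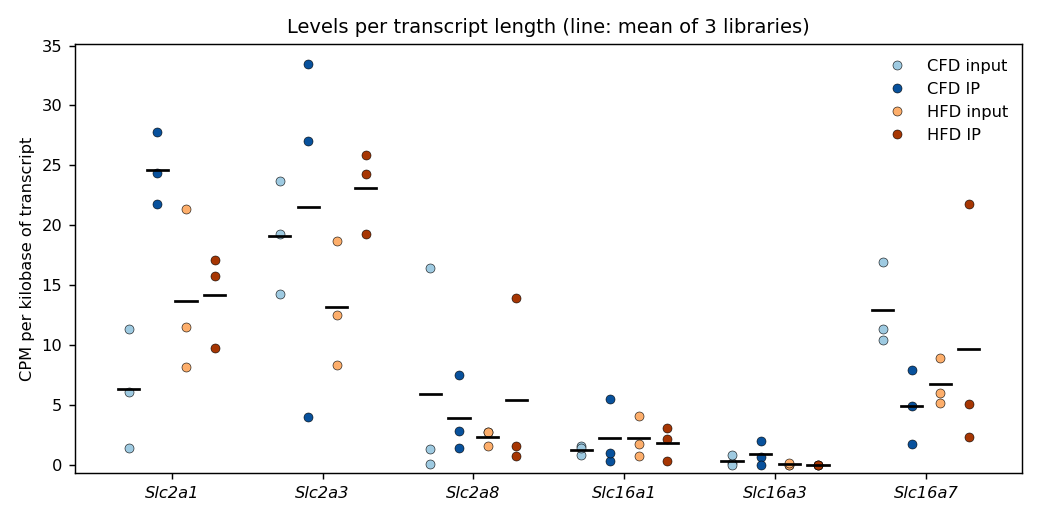
Levels of 6 transporters in CPM per kilobase of transcript, with 1 point per library and a line at the mean of 3 libraries for each of the 4 groups. Slc2a1 and Slc2a3 hold the highest group means except in CFD input, where Slc16a7 lies above Slc2a1, and Slc16a1 and Slc16a3 hold the lowest. Single libraries stand far above the rest for Slc2a8 and Slc16a7.

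Levels of the transporters were compared with each other only per length, as CPM divided by the transcript length in kilobases that the authors used. Over the 12 libraries the mean level was 19.2 ± 8.41 (SD) CPM per kilobase for Slc2a3, 14.7 ± 8.01 for Slc2a1, 8.53 ± 5.91 for Slc16a7, 4.38 ± 5.41 for Slc2a8, 1.87 ± 1.59 for Slc16a1 and 0.302 ± 0.594 for Slc16a3. Neighbours in this order differed by less than the larger of their SDs in 5 of 5 pairs, and by more than the smaller in 3. By group means of these per-length levels, Slc2a1 ranked 1 in CFD IP and HFD input, 2 in HFD IP and 3 in CFD input, whereas Slc2a8, Slc16a1 and Slc16a3 ranked 4, 5 and 6 in all 4 groups. Slc2a1 and Slc2a3 together made up between 49.4% and 88.9% of the summed per-length level of the transporters in a library. The authors' length for Slc16a7 was 2419 bases, while the RefSeq transcript used for its exon count has 11062, and its level with that transcript, an alternative chosen after seeing the data, was 1.87 ± 1.29 CPM per kilobase over the 12 libraries. The order by group then changed. Slc16a7 fell below Slc2a8 in all 4 groups and below Slc16a1 in CFD IP and HFD input, Slc2a1 ranked 2 in CFD input, and the share of Slc2a1 and Slc2a3 ran from 63.0% to 93.0%.

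The balance of the 2 main glucose carriers, as the per-length level of Slc2a1 over that of Slc2a3, had a median of 1.03 in CFD IP, 0.703 in HFD IP, 0.428 in CFD input and 0.98 in HFD input. The most extreme values came from animal 555, at 5.53 in its IP library and 0.0718 in its input library. Without that animal the 10 libraries ran from 0.377 to 1.71. The summed per-length level of the glucose carriers ran from 19.1 to 60.6 CPM per kilobase, and that of the 3 monocarboxylate carriers from 4.03 to 22.0, or from 1.85 to 7.14 with the RefSeq transcript of Slc16a7.

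**Figure D2:**
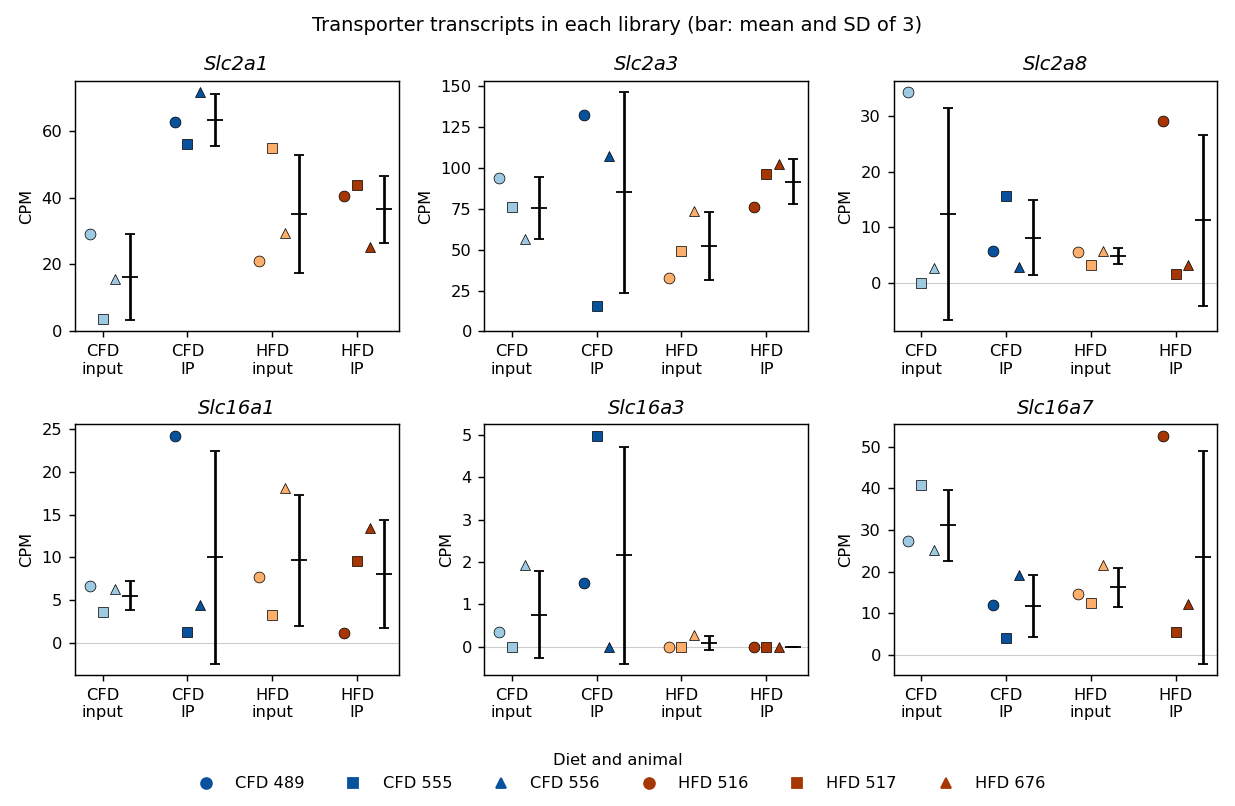
CPM of 6 transporters by group, with 1 symbol per animal and a bar at the mean with the SD of 3 libraries. The 3 CFD IP values of Slc2a1 lie above all CFD input and HFD IP values, while Slc2a8, Slc16a1 and Slc16a3 show 1 or 2 high libraries within groups that are otherwise low.

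Slc2a1 lies on the plus strand of chromosome 4 (GRCm38, 119108745 to 119137330) and its RefSeq transcript has 10 exons. Its level was 62.6, 55.9 and 71.5 CPM in the CFD IP libraries of animals 489, 555 and 556, from 1157 to 1275 counts. The HFD IP libraries of animals 516, 517 and 676 held 40.6, 43.9 and 25.1 CPM. In CFD input the values were 29.2, 3.56 and 15.7 CPM, and in HFD input 20.9, 54.9 and 29.5 CPM. Thus every CFD IP library was higher than every HFD IP library and every CFD input library, while HFD IP and HFD input overlapped, as did the 2 input groups.

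The mean of Slc2a1 in CFD IP, 63.3 ± 7.81 CPM (SD, n = 3), compared with 36.5 ± 10.0 CPM in HFD IP, a log2 fold change of -0.79 ± 0.66 (SE) with a 95% interval from -2.16 to 0.57. The adjusted p was 0.661 in edgeR, so the difference between the 2 groups did not pass the test. Of all tested genes, 4.66% were likewise lower in HFD IP with no overlap. The share of Rn45s also differed between these groups, and with Rn45s and Lars2 left out before scaling the log2 fold change was -0.82, with an adjusted p of 0.653.

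Within CFD, Slc2a1 averaged 16.2 ± 12.8 CPM in input, and the log2 fold change of IP over input was 1.97 ± 0.68 (95% interval 0.56 to 3.38), with an unadjusted p of 0.0083 (adjusted p = 0.273) in edgeR. It was 1.98 with Rn45s and Lars2 left out. DESeq2 called it, with an adjusted p of 0.0506, where 5.91% of the 13798 genes it tested were called. Complete separation in this direction was found for 6.43% of genes. Within HFD the log2 fold change was 0.06 ± 0.66 (95% interval -1.30 to 1.42, adjusted p = 0.996). The difference between the diets in this ratio, the interaction of diet and fraction, was -1.91 ± 0.94 on the log2 scale with an unadjusted p of 0.0532 (adjusted p = 0.896). Between the input groups the log2 fold change of HFD over CFD was 1.12 ± 0.66, with an adjusted p of 1. The predicted genes Gm52706 and Gm12867 on the opposite strand overlap exons of Slc2a1, and since the use of strand in counting is not stated, their reads cannot be told apart from its own.

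Slc2a3 (chromosome 6, minus strand, 122727809 to 122802363, 10 exons) had 322 to 3363 counts per library. Its CFD IP libraries held 132, 15.6 and 107 CPM, of which the low value belongs to animal 555. The HFD IP libraries were closer together, at 76.3, 96.0 and 102 CPM. CFD input held 93.7, 76.3 and 56.4 CPM and HFD input 32.8, 49.5 and 73.9 CPM. The HFD IP libraries all lay above the HFD input libraries, a separation found for 6.13% of genes in that direction, and the other comparisons overlapped.

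On the log2 scale Slc2a3 in HFD IP differed from HFD input by 0.82 ± 0.56 (SE; 95% interval -0.34 to 1.97, adjusted p = 0.891), from means of 91.6 ± 13.6 and 52.1 ± 20.7 CPM (SD, n = 3). Between the IP groups the difference was 0.11 ± 0.55 (95% interval -1.04 to 1.25, adjusted p = 0.962), and without animal 555 it was -0.39. In CFD the IP libraries differed from input by 0.17 ± 0.55, and HFD input differed from CFD input by -0.54 ± 0.55. No interval for Slc2a3 excluded 0 in edgeR, and each was wide enough to hold a change of a 2-fold size in at least 1 direction.

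Slc2a4 (chromosome 11, minus strand, 69942286 to 69948216, 11 exons) was listed with 0 counts in all 12 libraries. A count of 0 allows up to 3 counts, which is 0.00936 CPM over the 12 libraries together and 0.0834 to 0.168 CPM in a single library. Such limits cover counting error only, since reads of 1 molecule copied by PCR cannot be recognised here. Its levels in the groups therefore could not be compared.

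Slc2a8 (chromosome 2, minus strand, 32972981 to 32982083, 10 exons) showed the widest spread of the glucose carriers. The CFD input libraries held 798, 1 and 73 counts, or 34.2, 0.0353 and 2.66 CPM. In CFD IP it was 5.79, 15.7 and 2.86 CPM, in HFD IP 29.0, 1.49 and 3.17 CPM, and in HFD input 5.59, 3.15 and 5.69 CPM. Single libraries carried most of the group sums, with 92.7% of the CFD input sum in animal 489 and 86.2% of the HFD IP sum in animal 516. All 4 groups overlapped. The log2 fold change of HFD IP over CFD IP was 0.47 ± 1.49 (95% interval -2.62 to 3.56, adjusted p = 0.935) and turned to -1.82 without animal 516, and that of CFD IP over CFD input was -0.60 ± 1.49 and turned to 2.77 without animal 489. Neither a difference nor its absence can be read at this spread.

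Slc16a1 (chromosome 3, plus strand, 104638664 to 104658462, 5 exons) carries lactate, pyruvate and ketone bodies with protons. It held 24.2, 1.30 and 4.43 CPM in CFD IP and 1.14, 9.55 and 13.4 CPM in HFD IP. The input libraries held 6.69, 3.63 and 6.24 CPM in CFD and 7.65, 3.19 and 18.1 CPM in HFD. The groups overlapped in every comparison, and animal 489 carried 80.8% of the CFD IP sum. Its log2 fold change of HFD IP over CFD IP was -0.31 ± 1.29 (95% interval -2.98 to 2.36, adjusted p = 0.95), which turned to 1.47 without animal 489. CFD IP over CFD input gave 0.85 ± 1.30, which turned to -0.79 without the same animal, and HFD IP over HFD input gave -0.26 ± 1.29.

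Slc16a3 (chromosome 11, plus strand, 120948484 to 120959000, 6 exons) had counts in 5 of 12 libraries. These were 29 and 103 counts in the CFD IP libraries of animals 489 and 555, 8 and 53 in the CFD input of animals 489 and 556, and 8 in the HFD input of animal 676. The 3 HFD IP libraries were at 0, and so was the CFD IP library of animal 556, so that the IP groups overlapped at 0. The floor of 3 counts per library averaged 0.0982 CPM in HFD IP, and the CFD IP mean was 2.16 ± 2.55 CPM (SD, n = 3). That SD exceeds the mean and the CFD IP library of animal 556 was at 0, so no fold is read. Slc16a3 passed the filter on low counts only through its CFD libraries, so nothing is read from the test of HFD IP against CFD IP, in which it was not called (adjusted p = 0.394 in edgeR). The gene Csnk1d on the opposite strand overlaps an exon of Slc16a3, so a few counts at this level could belong to either gene.

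Slc16a7 (chromosome 10, minus strand, 125219270 to 125389586, 7 exons) was the most abundant per length of the 3 monocarboxylate carriers in each group mean by the authors' length, but lay below Slc16a1 in 2 of 4 groups by that of the RefSeq transcript. In CFD input it held 27.3, 40.9 and 25.2 CPM, above all 3 CFD IP libraries at 11.9, 4.20 and 19.1 CPM and all 3 HFD input libraries at 14.5, 12.5 and 21.6 CPM. HFD IP held 52.6, 5.52 and 12.2 CPM, of which animal 516 gave 74.8% of the sum. In CFD, IP lay below input by a log2 fold change of -1.41 ± 0.88 (95% interval -3.23 to 0.41, adjusted p = 0.534 in edgeR), where 8.72% of genes were lower with no overlap. HFD input differed from CFD input by -0.94 ± 0.87 (adjusted p = 1), where 4.33% were lower with no overlap. HFD IP over CFD IP gave 0.997 ± 0.87 (95% interval -0.81 to 2.80, adjusted p = 0.679), which turned to -0.43 without animal 516.

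**Figure D3:**
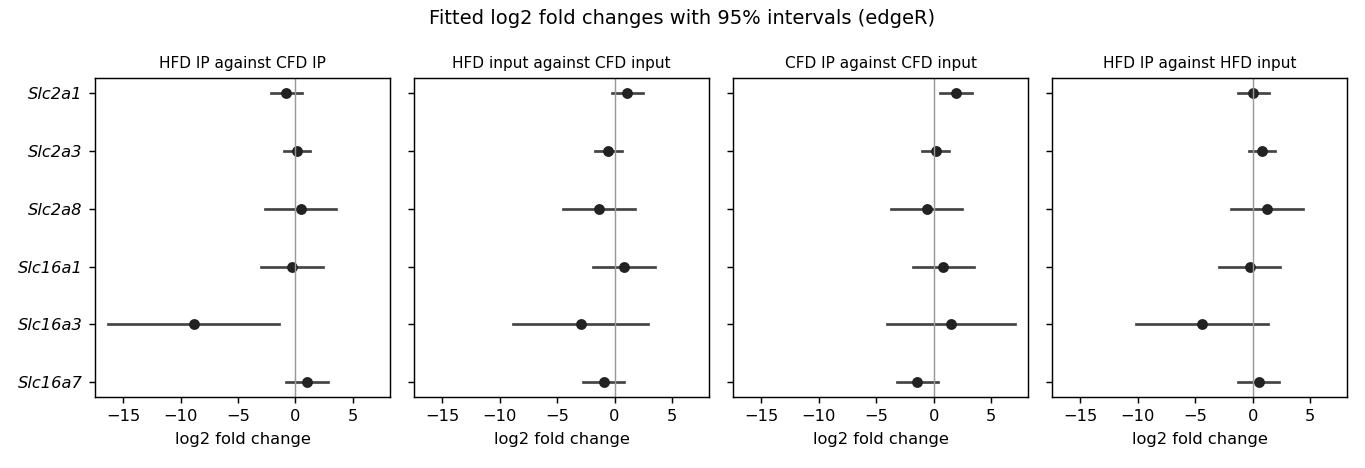
Fitted log2 fold changes of 6 transporters (x axis) with 95% intervals from edgeR in 4 comparisons. Only the interval of Slc2a1 in CFD IP against CFD input and that of Slc16a3 in HFD IP against CFD IP leave out 0. Neither passed an adjusted p of 0.1, and Slc16a3 passed the filter only through its CFD libraries.

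Read over the 6 tested transporters, HFD IP against CFD IP asked what the diet does to ribosome-bound RNA. No transporter was called, where 0.0557% of the 14354 genes tested were called, and 10.9% of all genes had an unadjusted p under 0.05. The only transporter under 0.05 was Slc16a3, from which nothing is read because its CFD libraries alone took it past the filter. The fitted fold was above 0 for 3 transporters and below for 3, with a median log2 of -0.10 against 0.03 over all genes. In CFD IP against CFD input 0 were called against 0.188% of genes, and 1 of 6, Slc2a1, had an unadjusted p under 0.05 against 11.8%. HFD IP against HFD input called 0 of 6 against 0.0139%, with 0 of 6 at an unadjusted p under 0.05 against 6.51%. IP against input over both diets called 0 of 6 against 2.35% and gave Slc2a1 an unadjusted p of 0.0415 (log2 fold change 1.01 ± 0.47, adjusted p = 0.335), with 13.9% of all genes under 0.05. The comparison of the 2 input groups and the interaction called 0 transporters and 0% of genes, and no transporter had an unadjusted p under 0.05, against 2.03% and 5.36% of genes. DESeq2 called no transporter other than Slc2a1 in CFD IP against CFD input.

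**Figure D4:**
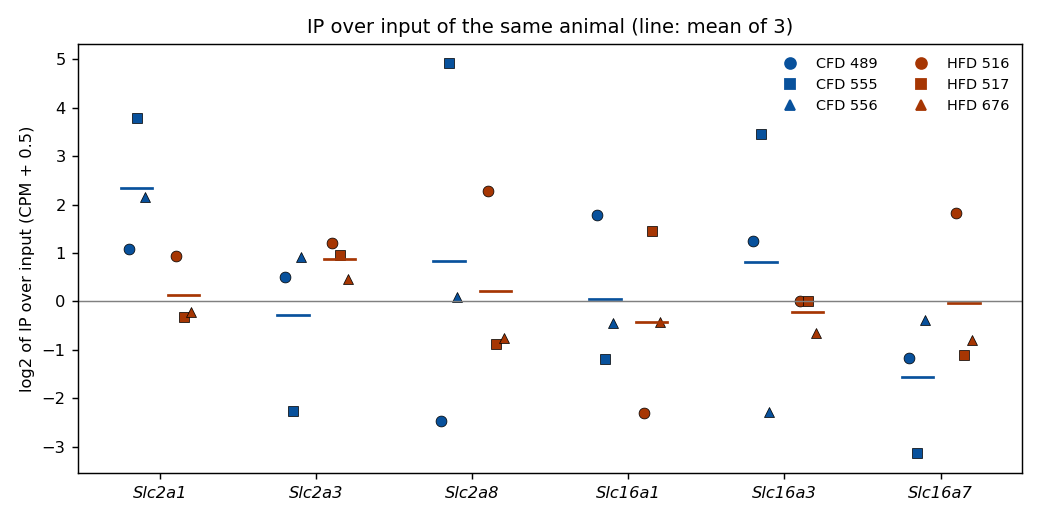
The log2 ratio of IP over input of the same animal (y axis, 0.5 CPM added to both) for 6 transporters, with 1 symbol per animal and a line at the mean of each diet. Slc2a1 is above 0 in all 3 CFD animals and Slc2a3 in all 3 HFD animals, while Slc16a7 is above 0 in animal 516 alone.

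The ratio of IP over input was also taken within each animal. For Slc2a1 the log2 ratio was 1.09, 3.80 and 2.15 in CFD animals 489, 555 and 556 and 0.94, -0.32 and -0.23 in HFD animals 516, 517 and 676. The mean over 6 animals was 1.24 ± 1.55 (SD), above 0 in 4 of 6, with p = 0.125 in a two-sided exact test over the 64 sign changes, whose smallest p is 0.03125. All 3 CFD animals were above 0, as were 12.9% of tested genes. The log2 ratio of summed endothelial markers in the same order of animals was -1.29, -2.75 and 2.93 in CFD and 1.91, 1.15 and -1.01 in HFD. These sums rested mostly on 1 marker in the IP libraries of animals 556, 516 and 517. Animal 555 had the highest ratio of Slc2a1 and the lowest of the endothelial markers, while 556 had the next highest and the highest. Whether the 2 ratios go together was not tested. The summed astrocyte markers were above 0 in 5 of 6 animals and ran from -0.26 to 1.10.

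For Slc2a3 the ratio was 0.50, -2.26 and 0.92 in CFD and 1.21, 0.95 and 0.47 in HFD, above 0 in 5 of 6 animals, with a mean of 0.30 ± 1.28 and an exact p of 0.625. All 3 HFD animals were above 0, as were 13.3% of genes. Slc16a7 was below 0 in 5 of 6 animals, at -1.17, -3.14 and -0.39 in CFD and 1.82, -1.11 and -0.80 in HFD, with a mean of -0.80 ± 1.60 and an exact p of 0.281. Its 3 CFD animals shared the direction with 16.7% of genes. The summed neuronal markers were below 0 in 5 of 6 animals, from -0.68 to 0.20. Their exception was animal 676, while that of Slc16a7 was animal 516. Summed oligodendrocyte markers were above 0 in 6 of 6 animals, and summed blood markers, mostly without counts, in 0 of 6. Slc2a8, Slc16a1 and Slc16a3 had mean log2 ratios of 0.53 ± 2.65, -0.19 ± 1.56 and 0.29 ± 1.93, with exact p-values of 0.719, 0.781 and 0.75. These 6 p-values were not adjusted, and none was under 0.05.

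Other genes of glucose, lactate, ketone body and glycogen handling were taken as 8 lists with 71 genes, of which 64 passed the filter. In the 6 comparisons 1 of the 64 was called, in IP against input over both diets, where 2.35% of all genes were. Ugp2, which makes the UDP-glucose used for glycogen, was lower in IP than in input over both diets, by a log2 fold change of -1.71 ± 0.45 with an adjusted p of 0.0729 in edgeR. Its CFD IP libraries held 8.64, 6.57 and 12.8 CPM and its CFD input libraries 54.5, 96.8 and 46.7 CPM. HFD IP held 8.91, 45.1 and 51.7 CPM and HFD input 52.5, 58.8 and 49.8 CPM, so the groups separated in CFD, where 8.72% of genes were lower with no overlap, and overlapped in HFD. In CFD alone the log2 fold change was -2.82 ± 0.66 with an adjusted p of 0.104, and with the animal as a block the adjusted p was 0.0612, with 0.968% of genes called. The difference between the diets was 2.21 ± 0.88 (adjusted p = 0.872). The call over both diets was lost without any one of animals 489, 555, 556, 516 or 517, where the log2 fold change ran from -1.96 to -1.42 and the adjusted p from 0.126 to 0.293.

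Bsg encodes basigin, the partner that carries MCT1 and MCT4 to the cell surface. It held 388, 182 and 189 CPM in HFD IP and 64.7, 63.4 and 134 CPM in HFD input, and all 3 IP libraries lay above all 3 input libraries, as did 6.13% of genes. The log2 fold change was 1.53 ± 0.39, with an unadjusted p of 0.00077 (adjusted p = 0.478) in edgeR. It was called with no filter on low counts (adjusted p = 0.0501, with 0.432% of genes called), in DESeq2 (adjusted p = 0.0217, with 1.16% called), and without animal 676 (adjusted p = 0.0744). It was not called in the other alternatives, with adjusted p-values from 0.156 with the replicate block to 0.68 in a fit of only the libraries compared, and up to 1 with another animal left out. In CFD the 2 fractions overlapped, at 137, 153 and 164 CPM in IP and 184, 205 and 116 CPM in input, and the difference between the diets was 1.69 ± 0.55 with an adjusted p of 0.829.

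**Figure D5:**
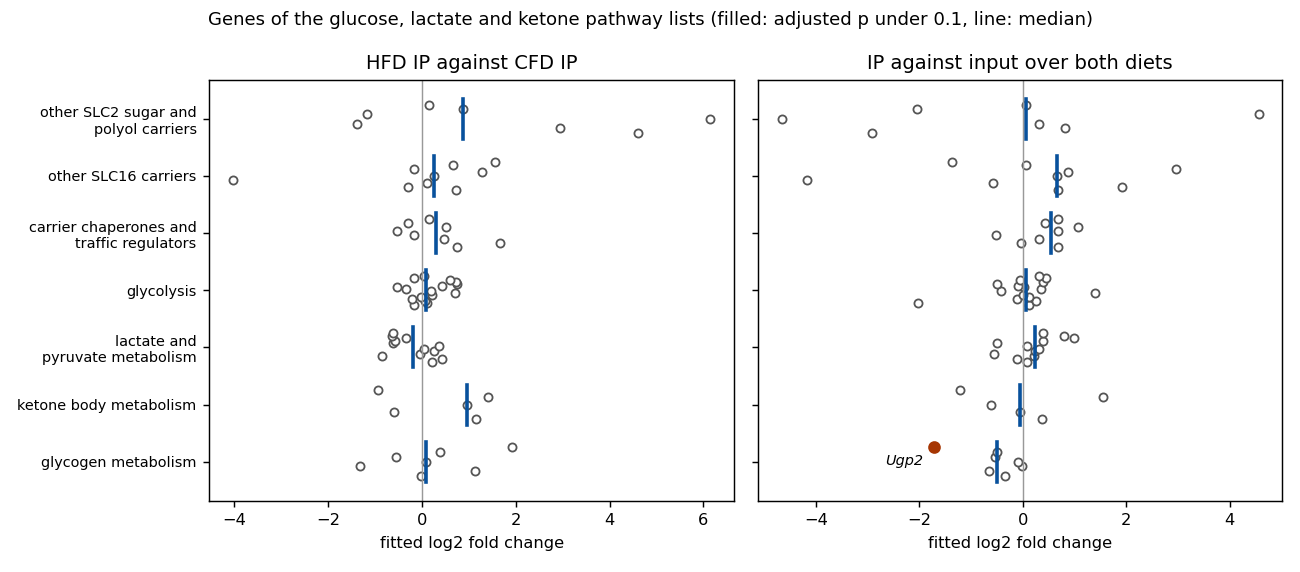
Fitted log2 fold changes (x axis) of the 64 tested genes of 7 lists in HFD IP against CFD IP and in IP against input over both diets, with 1 point per gene, filled where the adjusted p is under 0.1, and a line at the list's median. Ugp2 is the filled point, and the 7 lists spread to both sides of 0 in HFD IP against CFD IP.

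In HFD IP against CFD IP, 38 of the 64 pathway genes had a fitted fold above 0, with a median log2 of 0.12 against 0.03 over all genes, and 0 were called. The smallest p-values in their lists belonged to Ugp2 (log2 fold change 1.92, adjusted p = 0.333), the ketone body enzyme Acat1 (0.96, adjusted p = 0.426) and the glycolytic enzyme Pgk1 (0.75, adjusted p = 0.505). All 16 glycolysis genes were tested, of which 10 were fitted above 0 and 6 below, with a median of 0.08. Of 12 genes of lactate and pyruvate metabolism, 5 were above 0 and 7 below, with a median of -0.20. For IP against input over both diets, all 7 glycogen genes were fitted below 0 with a median of -0.50, and 6 of 8 chaperones and traffic regulators above 0 with a median of 0.55, against -0.03 over all genes. Of these 15 genes only Ugp2 was called. Pfkfb3, a regulator of the glycolytic rate, had a log2 fold change of 1.40 ± 0.44 (adjusted p = 0.126), and its IP library was above input in 6 of 6 animals, as were those of Aldoc and Eno2 of the same list and of 4.09% of genes. Sort1, a sorting receptor of GLUT4 vesicles, had 0.67 ± 0.23 (adjusted p = 0.159), and Slc16a11 of the other Slc16 carriers had 2.96 ± 1.05 (adjusted p = 0.181).

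Across the 12 libraries, which share the diets and fractions as well as depth, the log2 CPM of the transporters ran together only in part. Pearson's r was 0.64 for Slc2a1 with Slc2a8, 0.55 for Slc2a3 with Slc16a1, -0.50 for Slc2a1 with Slc16a7 and 0.0004 for Slc2a1 with Slc2a3. The genes most alike in pattern to each transporter over the 12 libraries were Kcnk3, Tdg and Clasrp for Slc2a1 (r from 0.891 to 0.908), Trpc4, Chst12 and Mmgt2 for Slc2a3 (0.879 to 0.911) and Fra10ac1, Cdh4 and Pitpnm1 for Slc2a8 (0.901 to 0.933). They were Plod1, Pigo and Nphp4 for Slc16a1 (0.915 to 0.935), Zmynd12, Exd1 and Skap1 for Slc16a3 (0.873 to 0.929) and Ints4, Zfp110 and Frem1 for Slc16a7 (0.867 to 0.904). These are the highest of 14353 correlations each, given as a description.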

How the data were processed

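White matter RNA of 6 animals was measured as 12 libraries, grouped by their labels. The authors aligned paired-end reads to mm10 with STAR, and the submitters' processing notes also name HTSeq. The annotation and the strand setting of the counting are not given in the sources used here. The kit named in the labels is not the one in the methods of the study. The deposited counts are raw. The FPKM that the authors deposited served only to obtain 1 length per gene. A normalized signal deposited by the authors was not used. The log2 fold changes and p-values deposited in 15 columns come from the authors' own comparisons and were not used.

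The counts were fitted with edgeR 4.0.16 in R 4.3.3 (filterByExpr at 10 counts and a total of 15, TMM, glmQLFit with 4 group means over all 12 libraries, glmQLFTest), which left 14354 genes. Benjamini-Hochberg adjustment ran over the whole table, and calls were made at an adjusted p under 0.1, the threshold of the study. CPM use TMM-scaled library sizes. The SE is the log2 fold change over the root of the F statistic. Replicates are separate animals. The IP and input libraries of 1 animal share that animal by their labels, and their deviations from group means correlated at 0.0064 to 0.19. Blocked fits used edgeR, or limma 3.58.1 (voom, duplicateCorrelation) between diets. DESeq2 1.42.0, RLE scaling, no filter and a likelihood ratio test were alternatives, as were each animal left out, only the libraries compared, and Rn45s and Lars2 left out. The code was tested on simulated data. Coordinates are of RefSeq GRCm38.

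The named genes are the 7 transporters, pathway genes that were called or had 1 of the 2 smallest p-values of their list in a comparison, and the 3 genes with the highest r to each transporter at a prior count of 2. Not every such gene is printed. The transporters and lists were chosen with earlier results of these data known.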

Additional observations from a re-analysis of the deposited data

How the results depend on the processing

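No transporter was called under any alternative except Slc2a1 in CFD IP against CFD input, where DESeq2 called 1. Over all genes, HFD IP against CFD IP called 8 genes and 1 to 770 under the alternatives, CFD IP against CFD input 27 and 2 to 816, HFD IP against HFD input 2 and 0 to 160, IP against input over both diets 337 and 7 to 996, HFD input against CFD input 0 and 0 to 31, and the interaction 0 and 0 to 121. The largest counts came from DESeq2, and the cause was not tested. Pathway genes called in HFD IP against CFD IP went from 0 to 1 with DESeq2, which called 770 of all 13798 genes it tested. In CFD IP against CFD input the pathway genes called went from 0 to 1 with no filter, 1 with the likelihood ratio test, 3 with DESeq2, 1 with the replicate block and 0 to 1 with an animal left out. Over all genes these settings in that order called 312 of 18302, 277 of 14354, 816 of 13798 and 139 of 14354. With an animal left out, 2 to 52 of all genes were called. In HFD IP against HFD input the pathway genes called went from 0 to 1 with no filter, 1 with DESeq2 and 0 to 1 with an animal left out. The calls over all genes were 79 of 18302, 160 of 13798, and 0 to 35 with an animal left out. Over both diets the pathway genes called went from 1 to 0 at an adjusted p under 0.05, 5 with no filter, 3 with the likelihood ratio test, 4 with DESeq2 and 0 to 3 with an animal left out. No filter called 730 of all 18302 genes, the likelihood ratio test 779 of 14354 and DESeq2 996 of 13798. With an animal left out, 7 to 430 of all genes were called.

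With an animal left out, fitted log2 fold changes that turned in sign ran as follows. In HFD IP against CFD IP, Slc2a3 ran from -0.39 to 0.56, Slc2a8 from -1.82 to 1.38, Slc16a1 from -0.90 to 1.47 and Slc16a7 from -0.43 to 1.55. In CFD IP against CFD input, Slc2a3 ran from -0.21 to 0.68, Slc2a8 from -2.09 to 2.77, Slc16a1 from -0.79 to 1.29, Slc16a3 from -0.59 to 4.21 and Bsg from -0.43 to 0.016. In HFD IP against HFD input, Slc2a1 ran from -0.32 to 0.38, Slc2a8 from -0.93 to 1.80, Slc16a1 from -0.82 to 0.11 and Slc16a7 from -0.96 to 1.10. Over both diets, Slc2a8 ran from -0.76 to 1.99, Slc16a1 from -0.53 to 0.51 and Slc16a3 from -2.51 to 0.75. Between the inputs, Slc2a8 ran from -1.94 to 1.81, Slc16a1 from -0.026 to 1.22 and Ugp2 from -0.50 to 0.093. The interaction ran from -1.55 to 3.32 for Slc2a8 and from -1.67 to 0.53 for Slc16a1. The mean paired log2 ratio ran from -0.35 to 1.13 for Slc2a8, from -0.59 to 0.23 for Slc16a1 and from -0.34 to 0.81 for Slc16a3.

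The animal as a replicate block changed no call but that of Ugp2 in CFD. With the animal as a block in edgeR, the sign turned for Slc2a3 (-0.21), Slc2a8 (0.64) and Slc16a1 (-0.078) in CFD IP against CFD input. It also turned for Slc16a7 (-0.11) in HFD IP against HFD input, for Slc16a1 (-0.29) over both diets and for Slc2a8 (-0.59) in the interaction. The blocked fits between diets used limma in place of edgeR, so the part of the block alone was not tested. There the sign turned for Slc2a8 (-0.40) and Slc16a1 (0.10) in HFD IP against CFD IP and for Slc2a8 (1.58) between the inputs. The biological coefficient of variation common to all genes was 101%. Slc2a8 was at or under the floor of 3 counts in 1 library and Slc16a3 in 7. With the RefSeq transcript length, chosen after seeing the data, the mean level of Slc16a7 moved from 8.53 to 1.87 CPM per kilobase.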

Other observations

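Among the other members of the 2 carrier families, Slc2a13, the proton-coupled myo-inositol carrier, varied less between libraries than Slc2a1 and Slc2a3, at 12.7 ± 2.26 (SD over 12 libraries) CPM per kilobase, between Slc2a1 and Slc16a7 in level. Its group means were 80.5 ± 10.6 CPM in CFD IP, 89.8 ± 8.36 in HFD IP, 85.4 ± 27.0 in CFD input and 76.7 ± 12.2 in HFD input. Slc16a11 held 41.6 and 36.2 CPM in the IP libraries of animals 555 and 516 and 0.26 and 0.94 CPM in those of animals 489 and 676. The sodium-coupled carriers of the Slc5a family were at or under the floor of 3 counts in 10 to 12 of 12 libraries, and none of these 4 genes passed the filter. Single libraries held more, with 448 counts of Slc5a1 in HFD IP of animal 516 and 156 of Slc5a12 in HFD input of animal 676.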
